A study of Mus musculus with 2 samples.

Results

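CD4 and CD8 are the coreceptors of T cells, and their 3 mouse genes, Cd4, Cd8a and Cd8b1, were followed in single cells of the optic nerve. They were taken by symbol from the gene table of both libraries, 3 of 32285 genes. The cells came from Nf1-OPG mice, which carry a neomycin cassette in 1 Nf1 allele throughout the body (Nf1+/-) and lose the floxed allele in neuroglial progenitors through GFAP-Cre. By this genotype the T cells of both groups were Nf1-heterozygous. The vancomycin group received this antibiotic from 6 to 12 weeks of age. The other group is labelled control, and the series design gives PBS over the same weeks as the alternative. Tissue of 10 mice aged 12 weeks was pooled per group and read as 1 library with a kit that captures the 5′ ends of transcripts. The protocol names dura of the meninges beside the optic nerve, whereas the tissue label of both libraries is optic nerve.

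T cells were cells with at least 2 UMIs (unique molecular identifiers, 1 per captured molecule) summed over Cd3d, Cd3e and Cd3g. This rule, and the gates for the other cell classes, used none of the 3 coreceptor genes. It took 4217 of 15215 kept vancomycin cells and 1912 of 4056 kept control cells. All 7 further T cell markers (Cd2, Cd5, Cd28, Trac, Trbc2, Lat, Bcl11b) stood at least 2-fold above the other cells in both libraries. No test was possible across samples, since each group is 1 library. Intervals in parentheses are 95% intervals for counting error only, exact binomial for shares and exact Poisson for levels. Where a gene was found in no cell, the share allowed is instead 3 counts over the number of cells. It limits cells with a UMI at this depth, not cells that express the gene.

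CD4 binds MHC class II and marks helper and regulatory T cells. CD8 binds MHC class I and marks cytotoxic T cells. It is a pair of chains: most CD8 T cells of blood and lymph node carry CD8 alpha with CD8 beta, whereas CD8 alpha alone, as a homodimer, is known from some innate-like and intestinal T cells and from a subset of dendritic cells. CD4 and CD8 alpha hold the kinase Lck through a Cys-x-Cys-Pro motif in their tails, which brings Lck to the T cell receptor. CD8 beta lacks this clasp. T cells in the thymus pass through a stage with both coreceptors and then silence one.

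The coding sequence around that motif shows how the 3 members differ. In each line below are 48 coding bases, 5′ to 3′, from the GENCODE M21 transcripts of GRCm38 (mm10), with the 4 codons of the motif in capitals. Bases are counted from the first base of the start codon.
Cd4, coding bases 1312 to 1359: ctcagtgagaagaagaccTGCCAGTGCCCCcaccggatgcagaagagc
Cd8a, coding bases 661 to 708: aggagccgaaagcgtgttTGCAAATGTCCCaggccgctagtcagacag
Cd8b1, coding bases 592 to 639, its last: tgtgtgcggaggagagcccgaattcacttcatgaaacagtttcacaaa
The motif, read in frame on the coding strand, began at codon 444 of 457 in Cd4 and at codon 227 of 247 in Cd8a. It was found nowhere in the 213 codons of Cd8b1. Of 21239 coding transcripts searched, 1 per gene, 489 (2.3%) held it, so a match is a description and not a site by itself. All 3 genes lie on chromosome 6 of mm10. Cd8b1 (ENSMUSG00000053044) spans 71322788 to 71337494 and Cd8a (ENSMUSG00000053977) spans 71373427 to 71379173, both on the plus strand and 35932 bases apart. Cd4 (ENSMUSG00000023274) lies at 124864692 to 124888221 on the minus strand.

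The libraries were unequal before any comparison of the 3 genes. They held 16596 and 4272 barcodes, and 144451114 and 25609899 UMIs, for vancomycin and control. Median UMIs per kept cell were 6781 and 4870.5, and 100 barcodes occurred in both. The vancomycin library held 3146 oligodendrocyte-gated cells and the control library 0, although both are labelled optic nerve. Of the T cells, 602 with vancomycin (14.3%) and 76 in the control (3.97%) lay outside the clusters that were mostly T cells. Those cells had medians of 15198 and 11328.5 UMIs, against 3987 and 5052.5 inside the clusters. At least 2 UMIs of macrophage, B cell or dendritic cell markers (Lyz2, Csf1r, C1qa, Cd79a, Ms4a1, Flt3, Siglech) were found in 61.6% and 77.6% of them, and in 1.94% and 1.85% of T cells inside the clusters. They carried 37.2% of the T cell UMIs with vancomycin and 9.21% in the control. Some results that rest on T cell totals are therefore also given within the mostly T cell clusters, called T clusters below. Where T clusters are not named, values are over all T cells. The part of the outside cells in each result was not tested beyond that.

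T cells held nearly all coreceptor RNA. Of all UMIs of a member in kept cells, T cells carried 96.7% for Cd4, 98.2% for Cd8a and 95.4% for Cd8b1 with vancomycin. In the control they carried 97.0%, 99.1% and 99.4%. Cd4 was detected, with at least 1 UMI, in 38.1% (36.7 to 39.6) of the T cells under vancomycin and 37.5% (35.3 to 39.7) of control ones. Cd8a was detected in 39.4% (37.9 to 40.9) and 48.6% (46.3 to 50.9). Cd8b1 was detected in 40.8% (39.3 to 42.3) and 49.9% (47.7 to 52.2). Oligodendrocytes of the vancomycin library were taken as a background, at a median of 9287 UMIs against 4381 in its T cells. They held Cd4 in 0.0318%, Cd8a in 0.159% and Cd8b1 in 0.318% of 3146 cells. In the control, 719 microglia at a median of 4496 UMIs, against 5141 in T cells, held them in 0.556%, 0.139% and 0.139%. The shares in T cells were far above both.

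Cd4 was the sparser message. Where it was found, the median was 2 UMIs per cell in both libraries, and a single UMI carried the call in 49.9% of Cd4-detected vancomycin cells and 31.8% of control cells. Cd8a and Cd8b1 each had a median of 5 UMIs per detected cell in both libraries. Single UMIs carried 8.72% and 12.8% of the Cd8a calls, and 13.2% and 12.3% of the Cd8b1 calls. Cd4 calls thus rested on fewer molecules per cell than calls of either CD8 chain.

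The 2 CD8 chains were found together. Among Cd8a-detected T cells, 94.8% (93.6 to 95.8) under vancomycin and 92.6% (90.7 to 94.2) of control ones also held Cd8b1. Among T cells without Cd8a, Cd8b1 was found in 5.71% and 9.66%. Read the other way, Cd8a was found in 91.5% and 90.1% of Cd8b1-detected T cells. Within T clusters the share of Cd8a-detected cells with Cd8b1 was 94.9% and 92.7%.

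**Figure D1:**
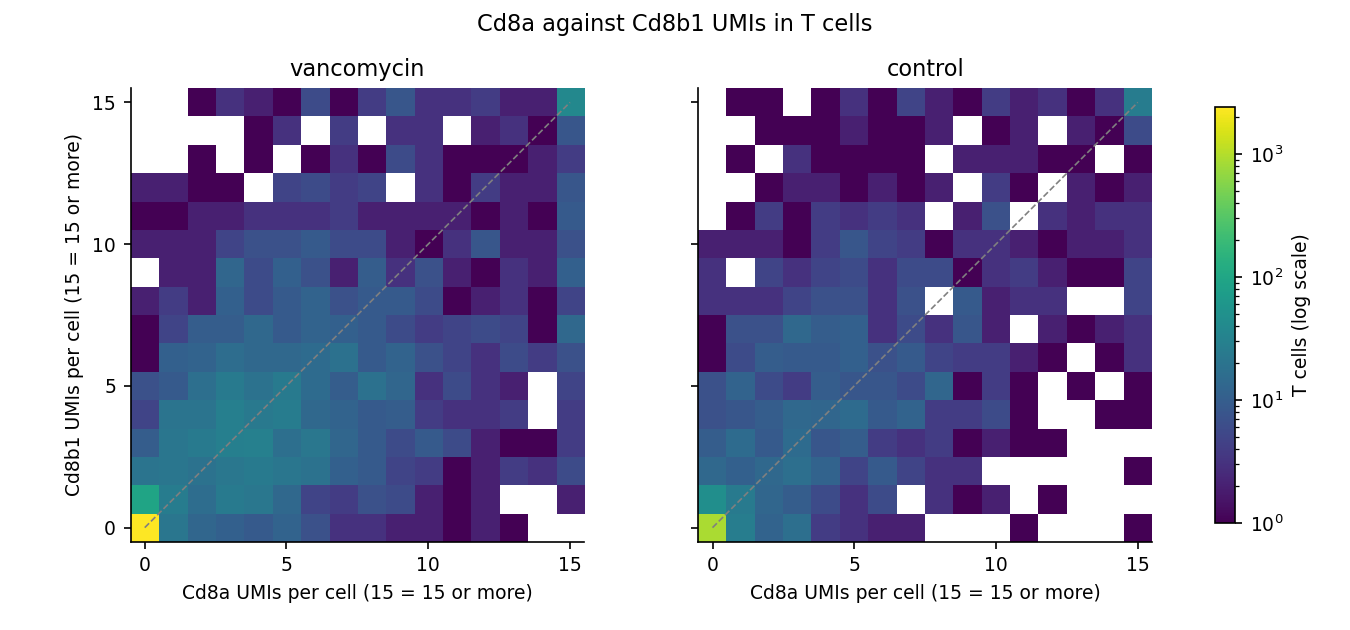
Cd8a UMIs (x axis) against Cd8b1 UMIs (y axis) per T cell in each library, with counts of 15 or more drawn at 15, the number of cells as colour on a log scale, and the dashed line marking equal counts. Most cells sit at the corner with neither chain or around the diagonal, and few lie along the axes beyond 3 UMIs.

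Cells with Cd8a and no Cd8b1 thinned out as Cd8a rose. Of T cells with at least 3 Cd8a UMIs, 53 of 1374 with vancomycin and 30 of 712 in the control had no Cd8b1. At 10 or more Cd8a UMIs, 6 of 345 and 2 of 175 had none. Across T cells other than gamma-delta cells, Cd8a and Cd8b1 had a Pearson correlation of 0.86 over 4205 vancomycin cells and 0.802 over 1907 control cells, on log counts per 10000. These cells share a library and a depth range, so the value is a description, but it was the highest for either chain among 7722 genes in both libraries.

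The balance of the chains, over pooled UMIs, differed by T cell cluster. Among cells with both chains and no Cd4, Cd8a gave 53.0% of the CD8 UMIs with vancomycin (52.3 to 53.7; 1462 cells) and 47.9% in the control (47.0 to 48.9; 799 cells). These intervals treat pooled UMIs as independent, so a difference between the libraries was not tested. Taken per cell, the median Cd8a share was 50% in both libraries. More Cd8a than Cd8b1 UMIs were held by 49.38% of these cells with vancomycin and 40.55% in the control. Transcripts are counted once at their 5′ end and the chains may be captured unequally. The Cd8a share is therefore compared between cells and not read as a ratio of chains. Clusters had been made without the 3 genes, and the split by cluster was looked at after seeing the data. The cluster values are over all T cells of a cluster, with or without Cd4 and with either chain. In cluster 11, led by Ly6c2, Gzmk, Gpr183 and Plac8, the Cd8a share was 44.4% (43.1 to 45.6) with vancomycin and 44.3% (43.1 to 45.5) in the control. In cluster 9, led by Ccl4, Klre1, Havcr2 and Ccl3, it was 54.8% (53.4 to 56.2) and 51.6% (49.5 to 53.8). In cluster 10, led by Nrgn, Xcl1, C2cd4b and Nrn1, it was 60.5% (59.3 to 61.7) and 57.1% (54.8 to 59.4). These 3 clusters held most of the CD8 UMIs, and their order was the same in both libraries, with intervals that did not overlap within a library. Those intervals treat pooled UMIs as independent and leave out the spread between cells, so a difference between clusters was not tested. The other 3 T clusters, with few CD8 UMIs, kept no such order. Their shares were 38.9% and 49.7% in cluster 8, 52.9% and 48.3% in cluster 12, and 45.2% and 38.5% in cluster 18. Cluster 11 held 57.2% of the CD8 UMIs of control T clusters and 30.9% of those with vancomycin. Cluster 10 held 15.8% and 35.4%.

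Cd4 and CD8 were mostly found in different cells. Any CD8 chain was found in 12.3% (10.69 to 13.95) of Cd4-detected T cells under vancomycin and 13.4% (11.0 to 16.1) of control ones. Among T cells without Cd4 it was found in 61.8% and 77.7%. Within T clusters these shares were 11.4% and 13.7% with Cd4, and 62.4% and 78.35% without. Over T cells, the correlation of Cd4 with Cd8a was -0.475 and -0.567, the most negative for Cd4 among the same 7722 genes.

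**Figure D2:**
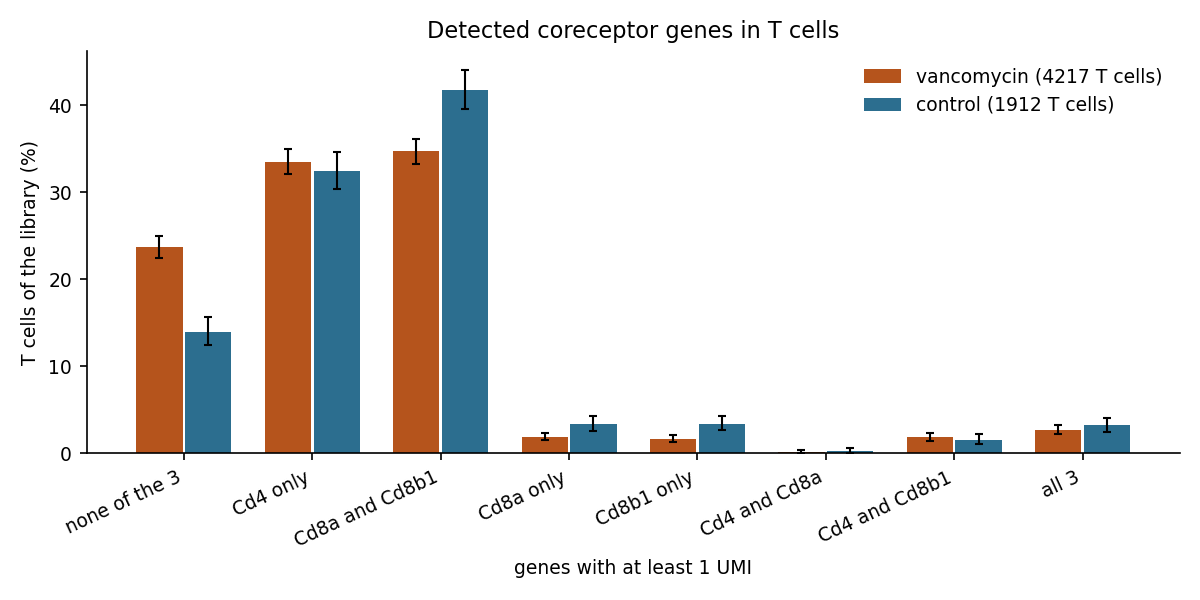
Share of T cells (y axis, %) by the set of coreceptor genes with at least 1 UMI (x axis), for 4217 vancomycin and 1912 control T cells, with 95% exact binomial intervals for counting error. The tall bars are none, Cd4 only and both CD8 chains without Cd4, and each set that joins Cd4 with a CD8 chain is under 5%.

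By combination, 1411 vancomycin T cells held Cd4 only (33.5%) and 1462 held both CD8 chains without Cd4 (34.7%). In the control these were 621 (32.5%) and 799 (41.8%). None of the 3 genes was found in 998 vancomycin T cells (23.7%; 22.4 to 24.98) and 267 control T cells (13.96%; 12.4 to 15.6). A single CD8 chain without Cd4 was rare: Cd8a only in 80 and 64 cells, Cd8b1 only in 69 and 65. All 3 genes were found in 113 and 61 cells, Cd4 with Cd8b1 alone in 77 and 30, and Cd4 with Cd8a alone in 7 and 5. Depth differed between these sets. Cells with none had medians of 3231.5 and 3396 UMIs, cells with both CD8 chains 5494 and 5865, and cells with all 3 had 9766 and 9785. Cells with all 3 in the control also held a median of 39 CD3 UMIs, against 14 in Cd4-only cells. Whether such barcodes held more than 1 T cell was not tested.

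Joint detection of Cd4 with a single CD8 chain was lopsided. Among T cells with Cd8b1 and no Cd8a, Cd4 was found in 52.7% (44.3 to 61.1) under vancomycin and 31.6% (22.4 to 41.9) of control ones. Among T cells with Cd8a and no Cd8b1, it was found in 8.05% (3.30 to 15.9) and 7.25% (2.39 to 16.1). The Cd8b1 signal in these Cd4 cells was low: 61 of 77 vancomycin cells and 24 of 30 control cells held exactly 1 Cd8b1 UMI. Within T clusters the shares were 50.4% and 32.3% for Cd8b1 without Cd8a, and 5.48% and 7.58% for Cd8a without Cd8b1.

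Foxp3, the defining factor of regulatory T cells, was looked at after this was seen. Of the cells with Cd4 and Cd8b1 but no Cd8a, 46.8% with vancomycin (35.3 to 58.5; 36 of 77) held Foxp3, against 21.05% of Cd4-only cells (18.9 to 23.3). In the control they were 26.7% (12.3 to 45.9; 8 of 30) and 15.3% (12.6 to 18.4), and these intervals overlap. The medians of UMIs were 5929 and 3900 with vancomycin, and 5273 and 4725 in the control, so the first set was also deeper. Within T clusters the Foxp3 shares of these 2 sets were 44.1% (31.2 to 57.6) and 21.1% (18.8 to 23.5) with vancomycin. In the control they were 26.7% and 14.7%. With vancomycin, Foxp3 was also found in 32.7% of cells with all 3 genes (24.2 to 42.2), at a median of 9766 UMIs. That interval overlaps the one of the first set. Cells with none of the 3, at a median of 3231.5 UMIs, held Foxp3 in 26.15% (23.45 to 29.0). In the control these shares were 24.6% and 17.2%. Cells with both CD8 chains and no Cd4 held Foxp3 in 1.57% and 2.25%. Cd8b1-only cells held it in 18.8% and 7.69%, and Cd8a-only cells in 2.5% and 0%. In all, 670 vancomycin and 188 control T cells held Foxp3. Cd4 was found in 55.4% and 63.3% of them, Cd8b1 in 16.3% and 24.5%, Cd8a in 9.40% and 18.1%, and none of the 3 in 39.0% and 24.5%.

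Detection and co-detection moved with depth. T cells of T clusters with at least 4000 UMIs were thinned to fixed totals, and the share expected over all ways of drawing the UMIs was computed exactly. In the 1804 vancomycin cells the share of Cd8a-detected cells with Cd8b1 was 92.7% at 4000 UMIs and 38.7% at 500 UMIs. In the 1266 control cells it was 93.9% and 41.3%. The share of Cd4-detected cells with any CD8 chain was 15.8% and 13.3% at 4000 UMIs, and 4.90% and 3.86% at 500. Cells with none of the 3 were 16.2% and 12.3% at 4000, and 58.4% and 58.1% at 500. Cd4 among cells with Cd8b1 and no Cd8a moved with depth too. At 4000 UMIs it was 33.9% and 24.1%, against 9.49% and 11.8% among cells with Cd8a and no Cd8b1. At 1000 UMIs it was 2.74% and 2.55%, against 1.71% and 2.11%.

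**Figure D3:**
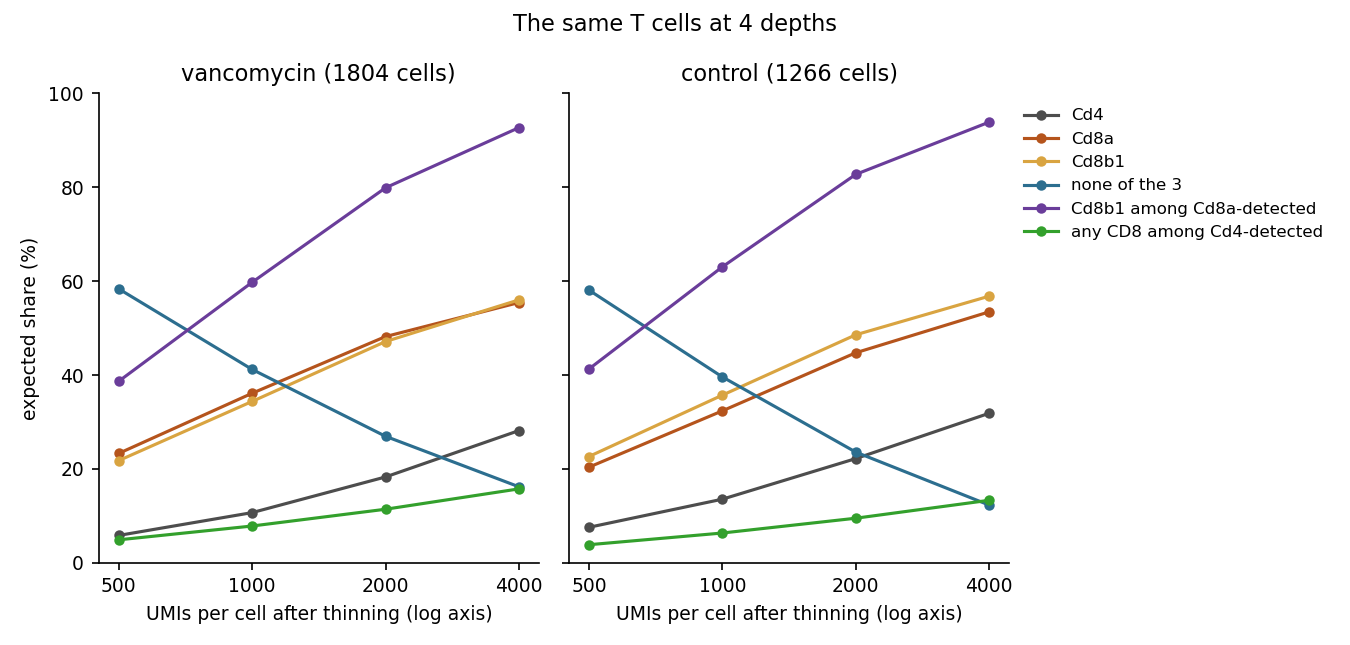
Expected share (y axis, %) of the same 1804 vancomycin and 1266 control T cells after thinning to 500, 1000, 2000 and 4000 UMIs (x axis, log scale), 1 line per quantity. All detection and co-detection shares climb with depth and the share with none of the 3 falls, in both libraries alike.

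Over all T cells thinned to 1000 UMIs, which left out 30 vancomycin and 66 control cells, Cd4 was expected in 13.8% and 16.1%, Cd8a in 24.2% and 29.2%, and Cd8b1 in 23.2% and 31.2%. All 3 shares were thus lower with vancomycin at equal depth, Cd4 included, and none of the 3 was expected in 53.8% and 42.3%. Within T clusters the same thinning gave 15.3% and 16.4% for Cd4, 26.2% and 29.9% for Cd8a, and 25.1% and 31.97% for Cd8b1.

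Summed levels gave a different order for Cd8a depending on which T cells were summed. Levels are CPM, the UMIs of a gene scaled to counts per 1e6 UMIs of the class. For Cd4 the level was 110.2 CPM under vancomycin against 171.8 CPM in control cells (ratio 0.642; 0.606 to 0.679). Within T clusters it was 151.6 against 181.9 CPM (ratio 0.833; 0.785 to 0.884). For Cd8b1 it was 349.2 against 548.4 CPM (ratio 0.637; 0.617 to 0.657), and within T clusters 487.2 against 588.1 CPM (ratio 0.828; 0.802 to 0.856). For Cd8a it was 398.3 against 502.6 CPM (ratio 0.792; 0.768 to 0.818), but within T clusters 554.6 against 536.7 CPM (ratio 1.03; 0.9998 to 1.07). With every cell of the T clusters weighted equally the log2 ratio of Cd8a was -0.12. These levels also follow the share of T cells that hold each gene. In T cells with a CD8 chain and no Cd4, within T clusters, Cd8b1 stood at 977.0 against 1026 CPM (ratio 0.9525; 0.920 to 0.986). Cd8a stood at 1110 against 941.3 CPM there (ratio 1.18; 1.14 to 1.22). Over all such T cells the ratios were 0.774 for Cd8b1 and 0.959 for Cd8a. Those cells were picked by the same genes, so their levels depend on detection. No direction is therefore given for Cd8a. None of the 3 genes reached 2-fold, in a comparison where 4.66% of 13230 genes passed 2-fold upward and 1.41% downward under vancomycin. Within T clusters these were 2.0% and 1.12% of 11365 genes. The libraries were also made with different versions of the counting software, which cannot be told apart from the treatment.

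Outside T cells, plasmacytoid dendritic cells (pDC) were the class with clear CD8 chain RNA. They are interferon-producing cells, gated here on Siglech with Ccr9, Cox6a2 or Klk1 and little microglial RNA. In the vancomycin library 26 cells met this gate alone, at a median of 7917.5 UMIs. Cd8b1 was found in 15 of them (57.7%; 36.9 to 76.6) at 573 CPM (491 to 665). Cd8a was found in 10 (38.5%; 20.2 to 59.4) at 149.1 CPM, and Cd4 in 4 (15.4%; 4.36 to 34.9) at 29.8 CPM. The 15 cells held 1 to 43 Cd8b1 UMIs with a median of 9, and 12 of them held at least 2. In a check made after seeing this, none of the 26 held a UMI of Trac or Trbc2, which the gate did not use. None held a UMI of Cd3d, Cd3e or Cd3g either, of which the gate allowed at most 1. The same check found Lat in 15.4% and Cd2 in 7.69% of the 26, against 85.6% and 79.1% of T cells in that library. Of the 3 control pDC, 33.3% held Trbc2 and none held Trac, Lat or Cd2. Both chains were found in 8 cells, Cd8b1 alone in 7, Cd8a alone in 2 and neither in 9. Cd8a gave 20.6% of their CD8 UMIs (15.5 to 26.6), against 53.3% in T cells of the same library (52.6 to 53.96). These UMIs are pooled over few cells, and 1 cell held 43 of the 173 Cd8b1 UMIs. The 3 pDC of the control held 17 Cd8a and 13 Cd8b1 UMIs, a share of 56.7% (37.4 to 74.5) beside 47.8% in control T cells, so the low share was seen in 1 library only. With cells that also met another gate kept, 60 vancomycin cells held Cd8b1 in 50% (36.8 to 63.2) and Cd8a in 40% (27.6 to 53.5). Cd8a then gave 29.1% of the CD8 UMIs (25.02 to 33.5).

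**Figure D4:**
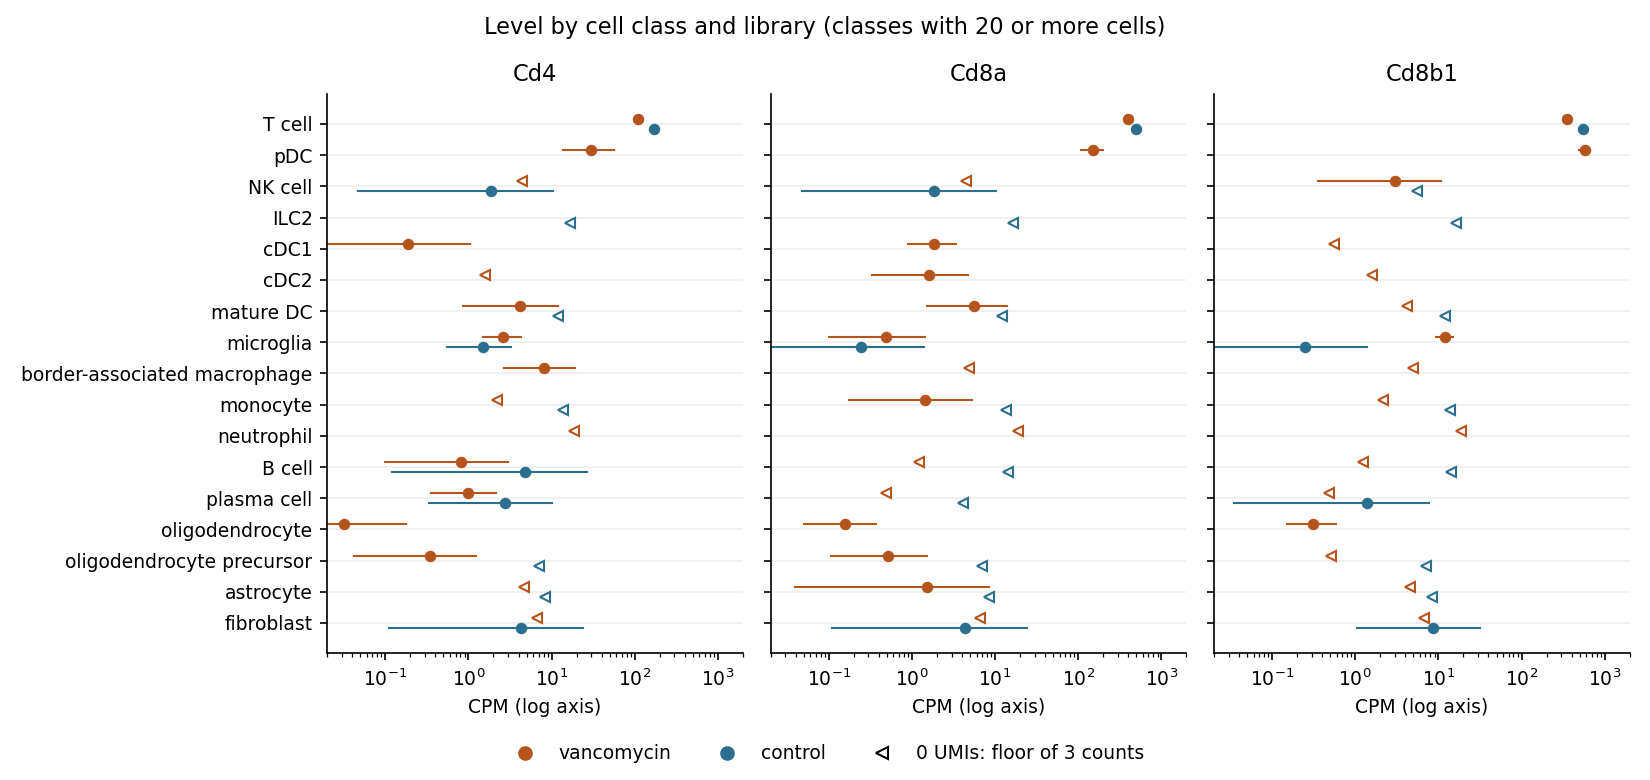
Level of each gene (x axis, CPM, log scale) by cell class and library, for classes with at least 20 cells; points are summed UMIs, lines 95% exact Poisson intervals cut at the left edge, and open triangles mark 0 UMIs at the floor of 3 counts. T cells and, for the CD8 chains, vancomycin pDC stand apart from every other class shown.

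Conventional dendritic cells held little. The cDC1 are the cross-presenting dendritic cells, a lineage in which CD8 alpha marks the lymphoid-organ members. Of 359 vancomycin cDC1, at a median of 15127 UMIs, 6 held Cd8a (1.67%; 0.616 to 3.60), at 1.85 CPM (0.888 to 3.40). Cd8b1 was found in none of them, which allows a share of up to 0.836%, and Cd4 in 1. In the control 1 of 9 cDC1 held a single Cd8a UMI. With cells of several gates kept, 20 of 512 vancomycin cDC1 held Cd8a (3.91%) and 16 held Cd8b1 (3.13%), and this set shares 21 cells with the pDC gate. Of 183 vancomycin cDC2, the class best known for priming helper T cells, 2 held Cd8a (1.09%) and none held Cd4 or Cd8b1, which allows up to 1.64% for each. Of 78 vancomycin mature dendritic cells, 2 held Cd8a and 1 held Cd4.

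Macrophages held few coreceptor UMIs. Microglia, the resident macrophages of the nervous system, held Cd4 in 6 of 873 vancomycin cells (0.687%; 0.253 to 1.49) and 4 of 719 control cells (0.556%; 0.152 to 1.42). The vancomycin share and its interval lay above the 0.0318% of oligodendrocytes, and in the control no such comparison was made, since microglia were themselves the background there. Cd8a was found in 3 and 1 of the microglia. Cd8b1 was found in 1 cell of each library, and the vancomycin cell alone held 73 UMIs, which made the whole class level of 12.0 CPM. Border-associated macrophages held Cd4 in 3 of 117 vancomycin cells (2.56%; 0.532 to 7.31) and 1 of 7 control cells, and a CD8 chain in none. The vancomycin share was also above that of oligodendrocytes, from 5 UMIs. Of the 174 vancomycin monocytes none held Cd4, which allows up to 1.72%. Among other immune cells of the vancomycin library, Cd4 was found in 2 of 308 B cells (0.649%; 0.0787 to 2.33). It was found in 5 of 296 plasma cells (1.69%; 0.551 to 3.90), at a median of 20338.5 UMIs. Both intervals overlap those of microglia and border-associated macrophages, so the macrophage shares were above oligodendrocytes but not set apart from these immune cells. No ILC2, of 19 vancomycin and 44 control cells, held any of the 3 genes.

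Among NK cells, cytotoxic lymphocytes without a T cell receptor, at most 2 cells of a library held any one coreceptor gene. Cd8a was found in 0 of 141 vancomycin NK cells, which allows up to 2.13%, and in 1 of 97 control cells (1.03%; 0.0261 to 5.61). Cd8b1 was found in 2 and 0, and Cd4 in 0 and 1. Their medians of 4099 and 5032 UMIs were close to those of T cells.

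Gamma-delta T cells use another receptor and, in many tissues, neither coreceptor. The gate set for them (at least 2 Trdc UMIs and no Trac) found 12 vancomycin and 5 control cells. Cd8a was in 0 of 12, which allows a share of up to 25%, and in 1 of 5, whose cell also held Cd8b1. Another 5 definitions were looked at after this, holding 24 to 40 vancomycin and 6 to 26 control cells. Over all of them the Cd8a share ran from 0 to 41.7% with vancomycin and from 15.4% to 50% in the control. With vancomycin, gates that asked for Trdc gave at most 12.5%. Those on gamma-chain genes, which set no condition on Trdc, gave at least 39.3%. The latter also required no UMI of the beta-chain variable genes (Trbv), and either no Trac or at most 1 Trbc UMI. In the control the same kinds of gate overlapped, from 15.4% to 34.8% and from 16.7% to 50%. Gamma-chain RNA is also made by alpha-beta T cells, so no coreceptor level of gamma-delta cells is given.

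The genes that went with the coreceptors were examined by comparing CD8-called T cells (a CD8 chain and no Cd4) with CD4-called ones (Cd4 and no CD8 chain). There were 1611 and 1410 such cells with vancomycin and 927 and 620 in the control. A gene counted when it was at least 2-fold apart the same way in both libraries, on log2 of CPM plus 10. Of 9269 genes, 0.593% were higher and 0.669% lower in CD8-called cells. The median over all genes was -0.03 and -0.01.

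Cytotoxic genes were 13 of the 55 genes higher in CD8-called cells. Of 22 genes of the cytotoxic programme 13 were higher and 0 lower, and their median log2 ratio was 1.55 in both libraries. The killer-lectin receptor Klrc1 stood at 123.5 CPM in CD8-called and 2.96 CPM in CD4-called vancomycin cells, and at 328.3 and 11.2 CPM in the control. Klrd1, its partner chain, had log2 ratios of 3.82 and 3.31. The chemokine Xcl1, which draws cDC1, had 4.298 and 2.16, and Ccl5 had 2.72 and 2.21. Among the killing molecules, Prf1 (perforin) had 2.30 and 1.96, Gzma 2.39 and 2.83 and Gzmb 1.40 and 1.29. Within T clusters Ccl3 was no longer 2-fold in both libraries, at 0.66 and 1.07.

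Helper and regulatory genes were 11 of the 62 genes lower in CD8-called cells. Of 20 measured genes of that programme 11 were lower in CD8-called cells and 0 higher, with medians of -1.16 and -1.61. Cd40lg, the ligand through which helper cells license B cells, stood at 5.35 CPM in CD8-called and 139.3 CPM in CD4-called vancomycin cells, and at 6.43 and 224.3 CPM in the control. Foxp3 had log2 ratios of -2.58 and -2.69, Il10 -2.48 and -1.91, Izumo1r (folate receptor 4) -2.85 and -2.74, and the costimulatory receptor Tnfrsf4 -2.59 and -3.01. Maf, a factor of helper cells outside the lists, had -3.06 and -3.45.

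Fewer of the lineage factors met the 2-fold rule. Of 19 measured, 1 was higher and 0 lower: Eomes, a T-box factor of cytotoxic cells, at 44.4 against 1.54 CPM with vancomycin and 120.2 against 3.44 CPM in the control. A further pair, named for their known role after their values were seen, did not meet the 2-fold rule in both libraries. Zbtb7b (ThPOK), which fixes the CD4 fate, had log2 ratios of -1.09 and -0.97, from 35 and 159 UMIs with vancomycin and 24 and 61 in the control. Runx3, which silences Cd4 in the CD8 lineage, had 0.75 and 0.42.

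Most partners of the coreceptors did not meet the 2-fold rule. Of 18 signalling genes 0 were higher and 2 lower, where 0.669% of all 9269 genes were lower. These 2 were Cd5, a brake on receptor signalling, at -1.54 and -1.63, and Cd247, the zeta chain of the receptor complex, at -1.27 and -1.05. Both also met the rule within T clusters, at -1.79 and -1.65 for Cd5 and -1.44 and -1.06 for Cd247. Lck, which both coreceptors carry, stood at 443.3 and 457.6 CPM with vancomycin and 569.5 and 570.7 CPM in the control. Of 12 measured ligand genes none was 2-fold apart in both libraries. Cd74, the chain that guides MHC class II, had -0.08 with vancomycin but -1.22 in the control, where it was -0.45 within T clusters. Of 12 measured innate-like genes 6 were higher, of which Xcl1, Cd160 and Gzmb are also in the cytotoxic list. The other 3 were Klre1, an NK receptor gene, at 2.95 and 2.79, and the gamma-chain constant genes Tcrg-C2 and Tcrg-C4.

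**Figure D5:**
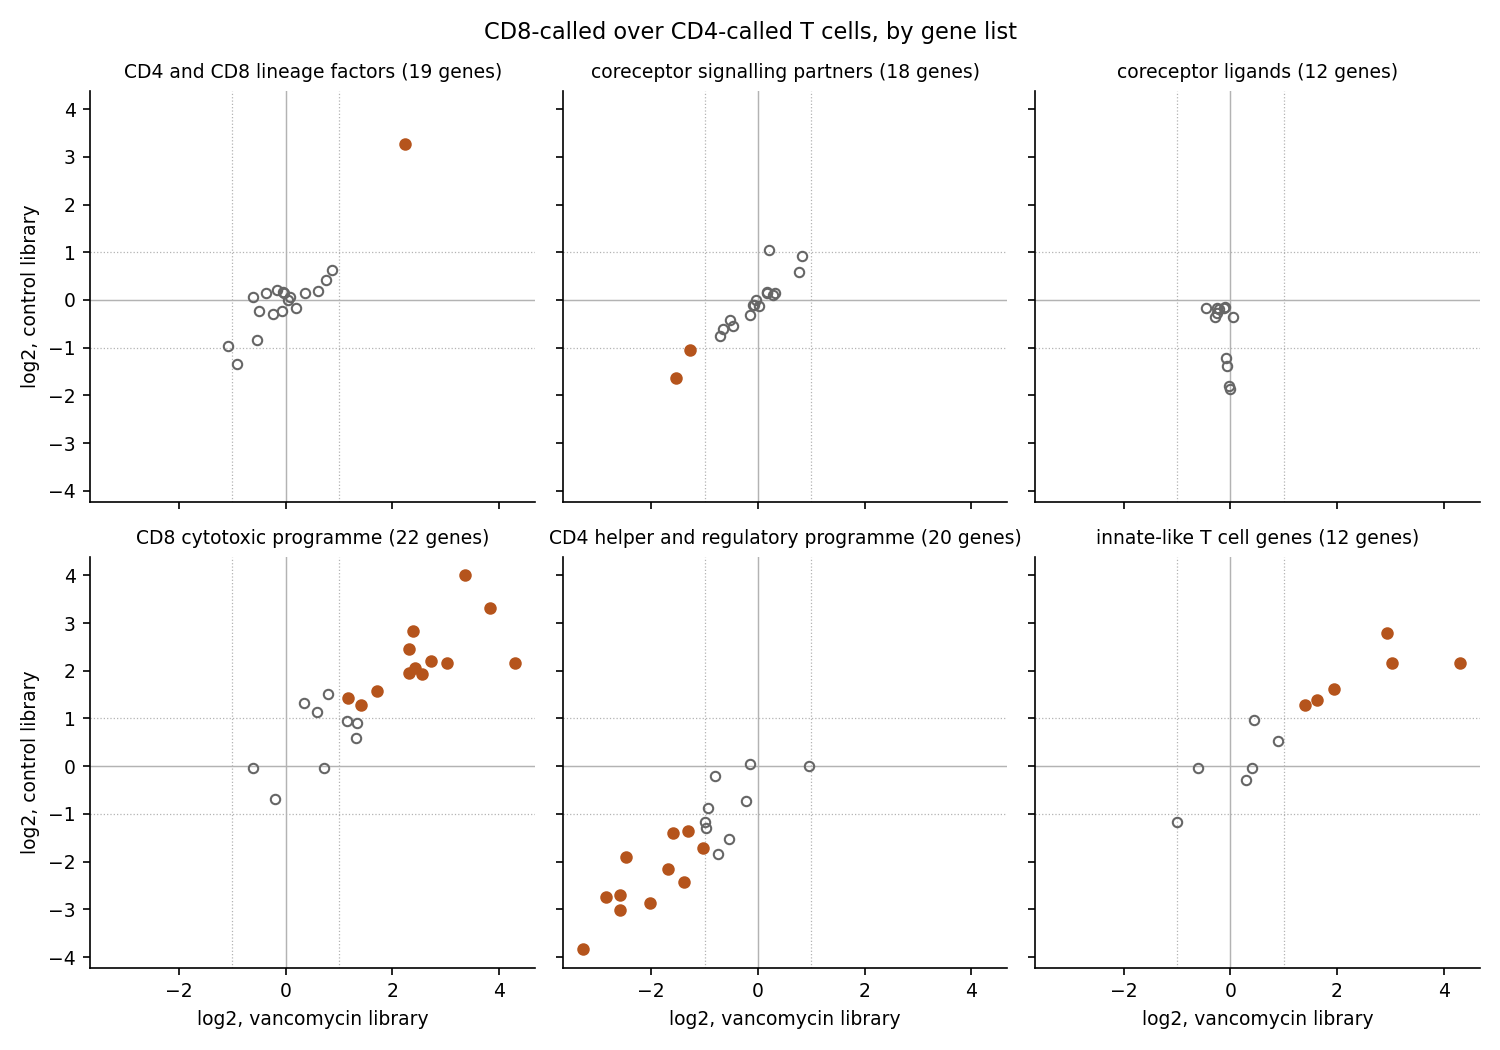
Log2 ratio of CD8-called over CD4-called T cells for the measured genes of the 6 lists, vancomycin library on x and control library on y, with dotted lines at 2-fold and filled points for genes past them the same way in both. The cytotoxic genes lie to the upper right and the helper and regulatory genes to the lower left.

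The genes most like each coreceptor across T cells fell on the same sides. After Cd8b1, Cd8a was most like Nkg7 (0.683 and 0.621), a granule protein gene, then Klrd1, Ccl5 and Nr4a2. Cd8b1 had the same 4 after Cd8a. Cd4 was most like Tnfrsf4 (0.365 and 0.451), Izumo1r, Maf, Ctla4 and Hif1a.

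Cells with at least 3 Cd8a UMIs, no Cd8b1 and no Cd4 were set against cells with both chains, as the nearest the data come to the CD8 alpha homodimer. There were 51 and 30 such cells, against 1225 and 633, and they were shallower (medians of 4201 and 4048 UMIs, against 5771 and 6166). Of 7766 genes, 0.142% were higher and 0.554% lower. The highest were C1qa, C1qb and C1qc, complement genes of macrophages, with C1qb at 662.3 against 248.1 CPM with vancomycin. None of these 3 was 2-fold in both libraries within T clusters, where 3 genes were higher in all. There C1qa, C1qb and C1qc had log2 ratios of -0.74, -1.55 and -0.65 with vancomycin but 1.25, 0.73 and 1.74 in the control. Among the lowest were Hbb-bs (-6.36 and -3.435) and Apod (-4.03 and -3.47). Within T clusters these were 0.35 and 1.16, and -0.40 and -0.03. Of the innate-like list 0 of 11 measured genes were apart in either direction. In the cytotoxic list 2 of 21 were lower, Gzma and Klrc1, from 4 and 19 UMIs in the vancomycin cells without Cd8b1, and neither passed 2-fold in both libraries within T clusters. There the log2 ratios were close to the first ones, -0.96 and -1.17 for Klrc1 (from -1.04 and -1.07) and -1.74 and -0.99 for Gzma (from -1.61 and -1.10). No gene of the lineage factor (18 measured), signalling (18), ligand (11) or helper (13) lists was apart. Few cells stand behind this comparison, and a difference of under 2-fold would not have been counted.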

How the data were processed

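The authors deposited raw UMI counts per gene and barcode. Per the file headers, Cell Ranger 7.2.0 produced those of vancomycin and 6.0.1 those of the control. The submitters' processing notes name mm10 and Partek. Intron counting and cell calling are not given in the sources used here. Kept cells had at least 500 UMIs, 200 genes and at most 20% mitochondrial UMIs, which left out 870 and 164 barcodes. Scrublet scores above 0.2 removed 511 and 52 more, a threshold shared by both libraries because the automatic one failed in the control.

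Cells that met the gates of several classes (1738 and 348) were left out, and 2470 and 642 met none. Leiden clusters were made without Cd4, Cd8a and Cd8b1, and in a T cluster a share of at least 0.5 of the cells met the CD3 rule. Levels were compared as log2 of CPM plus 10, over genes with at least 50 UMIs. Thinned shares are exact expectations without replacement. The interval and thinning code was tested on simulated data.

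The members and gene lists were chosen with earlier results of these data known. Named genes were list members past 2-fold in both libraries and the 3 highest otherwise, and the 8 highest and 8 lowest of each comparison at 100 CPM or more, without receptor, ribosomal and similar families. Python 3.11.15, scanpy 1.11.5 and scipy 1.17.1 were used. Scaling factors for an alternative came from edgeR 4.0.16 and DESeq2 1.42.0, with no count model fitted. Of 32285 gene identifiers, 32158 were found in GENCODE M21.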

Additional observations from a re-analysis of the deposited data

How the results depend on the processing

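Values are given for vancomycin and then control. Thinning to 1000 and to 2000 UMIs moved every share of T cells. Both chains (37.4% and 45.0%) went to 14.6% and 18.1%, and to 26.4% and 32.6%. Cd8b1 among Cd8a-detected cells went to 60.0% and 62.0%, and to 78.9% and 81.3%. Cd8a among Cd8b1-detected cells went to 62.7% and 58.2%, and to 80.3% and 76.2%. CD8 among Cd4-detected cells went to 3.71% and 4.53%, and to 5.96% and 7.55%. None of the 3 went to 53.8% and 42.3%, and to 38.5% and 26.4%. With 2 UMIs needed for detection these 5 shares, in the same order, were 31.9% and 37.8%, 88.7% and 89.3%, 90.03% and 86.3%, 7.95% and 8.998%, and 42.9% and 28.4%. With T cells taken by cluster, both chains stood at 34.4% and 40.2% and none of the 3 at 29.4% and 22.5%. With at least 4 CD3 UMIs and few of other lineages, the control had 47.6% and 11.5%.

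The log2 level of vancomycin over control in T cells was -0.60 for Cd4, -0.33 for Cd8a and -0.64 for Cd8b1. In that order it was -0.72, -0.46 and -0.77 with TMM factors, -0.75, -0.49 and -0.80 with DESeq2 size factors, -0.34, -0.23 and -0.42 with cells weighted equally, and -0.37, -0.22 and -0.42 after thinning to 1000 UMIs. T cells by cluster gave -0.22, 0.0793 and -0.23, so Cd8a turned. The CD3 rule within T clusters, added after seeing the data, gave -0.25, 0.0464 and -0.27, and with cells weighted equally -0.22, -0.12 and -0.32. A pseudocount of 50 CPM gave -0.47 for Cd4 and -0.58 for Cd8b1. For Cd8a, keeping every barcode gave -0.38 and keeping doublets -0.38.

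Counts of genes 2-fold apart followed the pseudocount. With 1 and 50 CPM in place of 10, CD8-called against CD4-called cells gave 99 and 19 genes higher (55) and 119 and 17 lower (62). Cd8a without Cd8b1 against both chains gave 18 and 3 higher (11) and 144 and 13 lower (43). Vancomycin against control gave 2318 and 164 higher (617) and 470 and 66 lower (186). Within T clusters these were 96 lower, 3 higher and 227 higher for the 3 comparisons in turn, and without a filter on low counts 23 genes were higher in Cd8a without Cd8b1. A further 69 values of the main results under these alternatives stayed within their intervals or, for counts, within 1.5 times.

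No paired analysis was possible because each group has 1 library, and leaving a library out would leave no comparison. Pooled mice give no spread between animals, so every interval covers counting error only.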
